A study of Macaca fascicularis with 16 samples.

Results

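The ascending aorta of the cynomolgus monkey (Macaca fascicularis) was set against the descending, suprarenal and infrarenal aorta in bulk RNA sequencing. The members were the 4 ascending libraries out of 16 in all, chosen by their titles. The other groups were 4 descending libraries from the rest of the thoracic aorta, 4 suprarenal libraries from above the renal arteries and 4 infrarenal libraries from below them. All came from normal young animals at baseline with no treatment, and the labels gave no strain, sex, age in years or allele. The labels did not say whether the 4 libraries of a region came from separate animals or which libraries shared one, so p-values measured the spread between these libraries, which may be partly technical.

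As background, the wall of the ascending aorta forms where the heart's outflow tract meets the great arteries, and its smooth muscle is known, from lineage tracing in mice, to come from cardiac neural crest and from the second heart field. The smooth muscle of the descending and abdominal aorta comes mostly from the somites and other mesoderm of the trunk. HAND and GATA factors pattern the heart and outflow tract, while HOX genes give cells of the trunk their position from head to tail, the higher numbered paralogs acting further back. Counts of RNA show which of these genes were on in the adult wall and carry no record of lineage.

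Library totals ran from 14402824 to 21407514 counts. Smooth muscle markers were high in every library, MYH11 at 3985 to 14110 CPM (counts scaled to a common library size with edgeR's TMM factors, here and below) in the ascending libraries and at 2952 to 12520 CPM in the other 12. Several libraries stood apart from their own region. Ascending 1 held RNA of heart muscle: MYL2, the regulatory light chain of ventricular myosin, was at 99.4 CPM there and at 0.123 to 0.605 CPM in ascending 2, 3 and 4, and TNNI3, cardiac troponin I, had 1196 reads there against 2, 0 and 8. Ascending 4 held RNA of mesothelium, the lining of the pericardial and pleural sacs: ITLN1 reached 813 CPM, and the summed level of 8 mesothelial markers reached 1050 CPM. Ascending 4, suprarenal 3 and infrarenal 3 were high in endothelial markers, and infrarenal 1 lay far out on the first principal component, at -149 where the other 15 lay between -19.9 and 32.7, with raised ribosomal protein genes. In bulk tissue, fewer cells of a type and less RNA per cell cannot be told apart.

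**Figure D1:**
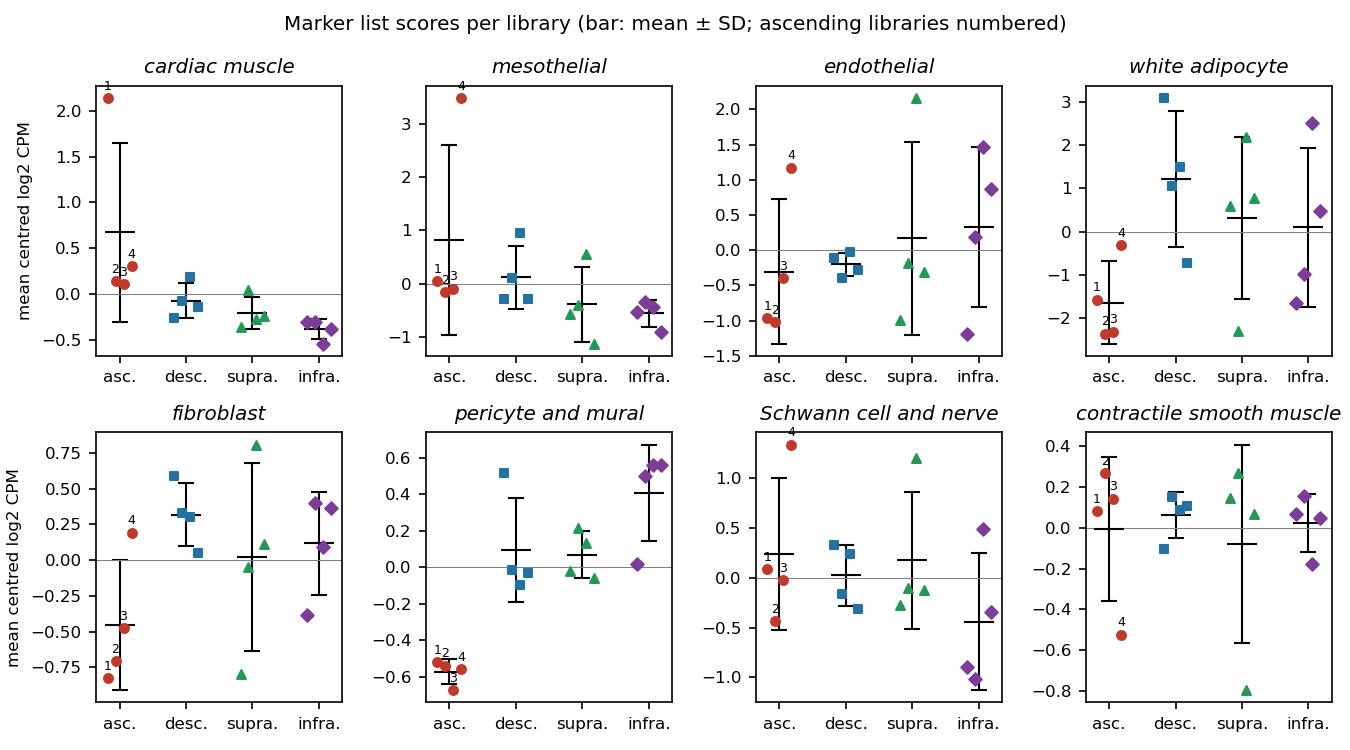
Scores of 8 marker lists in each library, where a score is the mean log2 CPM of a list's tested genes after each gene was centred on its mean over the 16 libraries. Points are libraries, the black bar is the mean and SD of a region (n = 4), and the ascending libraries carry their numbers. Ascending 1 had a cardiac muscle score of 2.14 where the other ascending libraries had 0.11 to 0.31, and ascending 4 had a mesothelial score of 3.48 where the others had -0.16 to 0.05.

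Each gene was tested for a difference between the ascending mean and the mean of the 3 other region means, on the log2 scale, with edgeR's quasi-likelihood test and Benjamini-Hochberg adjustment over all 15926 genes tested, and an adjusted p under 0.05 was called. That test and adjustment stand behind every adjusted p given here. In the ascending aorta 137 genes were higher (0.860%) and 84 were lower (0.527%), 221 in all (1.39%). At an unadjusted p under 0.05 there were 1595 of the 15926 genes, and DESeq2 called 547 of them. List counts given below at an unadjusted p or by DESeq2 are to be read beside these totals. The difference lay above 0 for 7620 genes (47.8%). The median log2 difference over all genes tested was -0.01. The comparison rests partly on the infrarenal end of the vessel. Against the infrarenal region alone 556 genes were called (3.49%), against the suprarenal region alone 41 (0.257%), against the descending region alone 18 (0.113%), and against the mean of the descending and suprarenal regions 66 (0.414%). By direction, 4 genes were higher (0.0251%) and 14 lower (0.0879%) against descending, 14 higher (0.0879%) and 27 lower (0.170%) against suprarenal, and 328 higher (2.06%) and 228 lower (1.43%) against infrarenal. These comparisons share the ascending libraries. Among the 3 other regions 154 genes differed (0.967%). All 4 ascending libraries lay above all 12 others for 71 genes (0.446%) and below them for 67 (0.421%), and of these, 49 of each direction were also called (0.308% each). The count of 221 fell to 120, 109 and 127 when ascending 1, 2 or 3 was left out and came to 640 without infrarenal 1. Leaving out 1 library, the count lay between 7 (without ascending 3) and 34 (without infrarenal 1) against descending, between 19 (without ascending 2) and 66 (without ascending 4) against suprarenal, and between 345 (without infrarenal 2) and 1001 (without infrarenal 1) against infrarenal.

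Transcription factors of the outflow tract and heart field were higher in the ascending aorta for 6 members, HAND1, HAND2, GATA4, GATA5, TBX20 and ISL1. Of 34 in the list, 29 were tested, 0 were lower and 23 were not called (over all genes tested 0.860% were higher), with a median log2 difference of 0.22 over the tested members. HAND1, a basic helix-loop-helix factor of the early heart and pericardium, was at 7.14, 7.41, 21.0 and 11.6 CPM in the ascending libraries. It was at 0, 0.0602, 0.425 and 0 CPM in the descending libraries, at 0.309, 0.813, 0.254 and 0 CPM in the suprarenal libraries, and at 0.463, 0.361, 0.524 and 0.17 CPM in the infrarenal libraries. HAND1 was thus high in the 4 ascending libraries and close to absent in the other 12, with no overlap. The log2 difference was 5.50 ± 0.58 (SE, adjusted p = 0.000165), and HAND1 was also called against each region alone, at 6.54 against descending, 5.03 against suprarenal and 4.95 against infrarenal. Against descending and suprarenal alone that call was lost in some fits without 1 library, with an adjusted p of up to 0.0685 and 0.104.

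HAND2, the paralog of HAND1 that acts in the second heart field and in neural crest, was expressed in every region and more in the ascending one. It was at 100, 107, 98.9 and 85.5 CPM in the ascending libraries, against 22.5, 48.2, 43.6 and 48.8 CPM in the descending, 28.5, 44.7, 25.4 and 62.2 CPM in the suprarenal and 23.4, 27.3, 21.1 and 24.2 CPM in the infrarenal libraries. The groups did not overlap, and the log2 difference was 1.52 ± 0.20 (SE, adjusted p = 0.000897). Alone against the infrarenal region the difference was 2.03 (adjusted p = 0.000626), while against descending and suprarenal it was 1.26 and 1.28 (adjusted p = 0.0921 and 0.0747).

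GATA5, a zinc finger factor of the endocardium and outflow tract, showed the same arrangement. It was at 30.2, 26.5, 61.3 and 70.6 CPM in the ascending libraries, and at 3.97 to 23.0 CPM in the other 12, where suprarenal 3 was the highest. The log2 difference was 2.37 ± 0.30 (SE, adjusted p = 0.000538). Its relative GATA4 was at 2.51, 0.679, 1.51 and 15.5 CPM in the ascending libraries. In the other 12 it stood between 0 and 0.698 CPM, so the lowest ascending library lay just inside their range. The log2 difference of GATA4 was 5.75 ± 0.78 (SE, adjusted p = 0.00101), and without ascending 4, the library with mesothelial RNA, it was 4.07 (adjusted p = 0.00789). GATA6, the third of these factors in the aorta and the one expressed throughout smooth muscle, was at 104 to 139 CPM in the ascending libraries and 72.3 to 123 CPM in the other 12, a log2 difference of 0.21 that did not pass (adjusted p = 0.723).

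TBX20, a T-box factor of the heart, and ISL1, the LIM homeodomain factor that marks second heart field progenitors, were called at low levels. TBX20 was at 1.57, 1.67, 2.72 and 3.02 CPM in the ascending libraries, against 0.855 to 1.20 CPM in the descending, 0.287 to 1.24 CPM in the suprarenal and 0 to 0.262 CPM in the infrarenal libraries. Its log2 difference was 2.22 ± 0.41 (SE, adjusted p = 0.0106). Taken alone, the difference was 4.25 against the infrarenal region and 1.09 against the descending one (adjusted p = 0.00144 and 0.759). ISL1 was at 3.63, 2.90, 2.42 and 1.45 CPM in the ascending libraries and at 0 to 0.721 CPM in 11 of the others, with suprarenal 3 at 2.35 CPM, a log2 difference of 3.34 ± 0.69 (SE, adjusted p = 0.0222). The call was lost for TBX20 without ascending 3 (adjusted p = 0.0516) and for ISL1 without any 1 of ascending 1, 2 and 3 (adjusted p up to 0.0948).

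**Figure D2:**
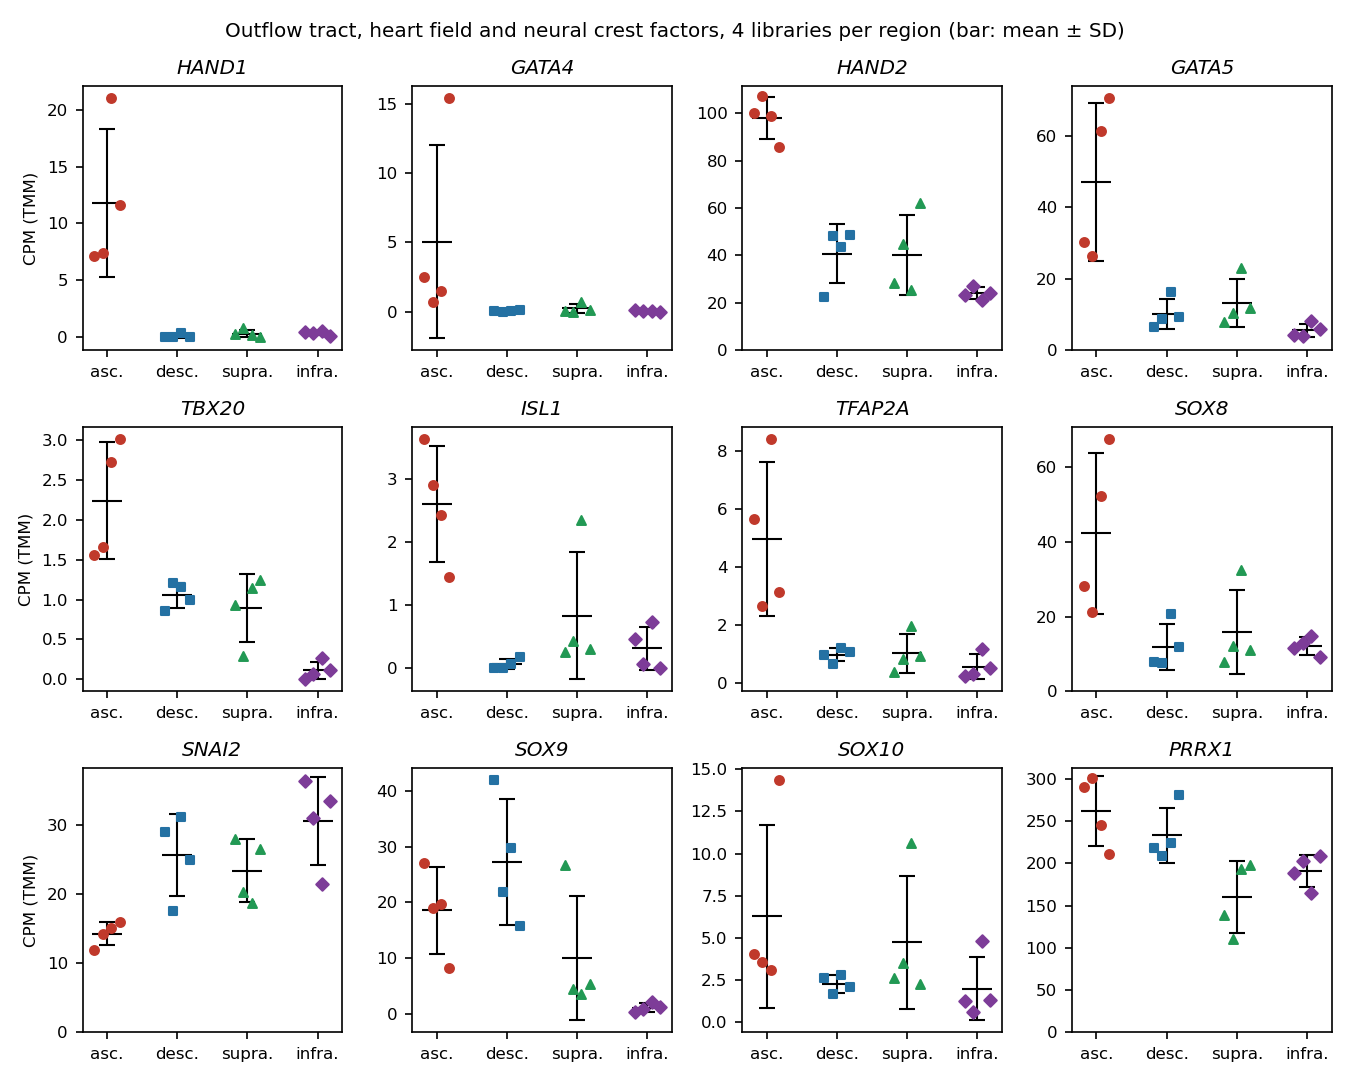
CPM of 6 outflow tract and heart field factors and 6 neural crest factors in each of 4 libraries per region, with the mean and SD of each region as a black bar. The ascending libraries are at the left of each panel; HAND1 lies between 7.14 and 21.0 CPM there and at or under 0.813 CPM in the other 12 libraries, while SOX9 is as high in the descending libraries.

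The members that did not pass include MEF2C, TBX1, TBX2, TBX3, FOXC1, FOXC2, FOXF1, HEY1 and HEY2, the last of these a Notch target of smooth muscle at 106 to 163 CPM in the ascending libraries and 74.4 to 214 CPM in the others. TBX1, the factor of the pharyngeal mesoderm lost in 22q11 deletion, had a log2 difference of -1.49 (adjusted p = 0.215). NKX2-5, the cardiac homeobox factor, was too scarce to test. It had 13, 1, 0 and 5 reads in the ascending libraries and 0 in all 12 others, and 13 of its 19 reads lay in the library with cardiac muscle RNA.

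Of 22 cardiac muscle markers 10 were tested, 9 had a positive difference, 2 were called (MYL2 and MYH6, both higher, where 0.860% of all genes tested were) and the median was 1.16. The summed level of the tested markers was 915.7 to 1776 CPM in the ascending libraries and 501 to 1502 CPM in the other 12. MYL2 and MYH6 were called through ascending 1: without it MYL2 had a log2 difference of -0.44 (adjusted p = 0.999), and MYH6 had an adjusted p of 0.242. Of the markers too uneven to pass the filter, MYL3, MB, MYBPC3 and CSRP3 had 691, 832, 401 and 113 reads in ascending 1 and at most 15 reads in any of the other 15 libraries. The atrial markers NPPA and MYL7 had 0 reads in all 4 ascending libraries and at most 7 in any of the other 12. HAND1 was as high in ascending 2 and 3, where MYL2 was at 0.123 and 0.605 CPM. The part of heart muscle or pericardial tissue in the HAND1 difference was not tested. With ascending 1 and 4 both left out, a choice made after the data were seen, HAND1 kept a log2 difference of 5.78 (adjusted p = 0.00253), and HAND2 and GATA5 stayed called (adjusted p = 0.0175 and 0.0103), while GATA4, TBX20 and ISL1 did not (adjusted p = 0.0921, 0.106 and 0.128).

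Factors of the neural crest were called in smaller number. Of 40 in the list 24 were tested, 3 were higher, 1 was lower and 20 were not called (0.860% higher and 0.527% lower over all genes tested), with a median log2 difference of 0.56, which became 0.38 without ascending 4 and 0.26 without ascending 1 and 4.

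TFAP2A, a factor that specifies neural crest, was at 5.64, 2.65, 8.41 and 3.14 CPM in the ascending libraries and at 0.231 to 1.97 CPM in the other 12. The groups did not overlap, and the log2 difference was 2.58 ± 0.40 (SE, adjusted p = 0.00312). SOX8, of the same SOX group as SOX9 and SOX10, was at 28.1, 21.2, 52.2 and 67.5 CPM in the ascending libraries and at 7.53 to 32.5 CPM in the other 12, where suprarenal 3 was the highest. Its log2 difference was 1.68 ± 0.34 (SE, adjusted p = 0.0213), and the call was lost without ascending 3 or ascending 4 (adjusted p up to 0.096). SNAI2, a repressor that drives crest cells out of the neural tube, was lower, at 11.97, 14.25, 15.07 and 15.99 CPM in the ascending libraries and at 17.6 to 36.4 CPM in the other 12. The difference was -0.88 ± 0.18 (SE, adjusted p = 0.0213), lost without any 1 of ascending 1, 2 and 3 (adjusted p up to 0.107).

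Several better known crest genes did not separate the ascending aorta. SOX9 was at 27.1, 19.0, 19.7 and 8.33 CPM in the ascending libraries and at 41.9, 21.9, 29.7 and 15.8 CPM in the descending libraries, and between 0.386 and 2.16 CPM in the infrarenal libraries. Against the infrarenal region alone it was higher by 3.98 on the log2 scale (adjusted p = 0.00389), against the descending region the difference was -0.56 (adjusted p = 0.847), and against the mean of all 3 it was 1.44 (adjusted p = 0.194). SOX10, the factor of crest and of Schwann cells, had a difference of 1.17 (adjusted p = 0.416), MSX1 of 0.80 (adjusted p = 0.117) and TWIST1 of -0.79 (adjusted p = 0.193). PRRX1, a factor of cranial and limb mesenchyme, was high in every region, at 211 to 301 CPM in the ascending libraries and 111 to 281 CPM in the others (adjusted p = 0.229). Of 19 Schwann cell and nerve markers, which share some of these genes, 0 were called by edgeR, DESeq2 or voom, 5 had an unadjusted p under 0.05 and 14 had a positive difference, with a median of 0.46 that became -0.09 without ascending 4. Their part in the differences of SOX8 and SOX10 was not tested.

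Among 29 tested factors of trunk and limb mesoderm, 3 were higher, 1 was lower (0.860% and 0.527% over all genes tested) and the median was -0.07. IRX2, an Iroquois homeobox gene, was at 15.3, 7.65, 12.7 and 22.2 CPM in the ascending libraries and graded down the vessel, with 3.37 to 7.32 CPM in the descending, 1.77 to 8.41 CPM in the suprarenal and 0.0602 to 1.05 CPM in the infrarenal libraries. Its log2 difference was 2.36 ± 0.42 (SE, adjusted p = 0.00826). Taken alone, the difference was 4.44 against the infrarenal region and 1.24 against the descending one (adjusted p = 0.00115 and 0.731). PITX1, a hindlimb factor, was at 0.626, 0.617, 4.48 and 0.785 CPM in the ascending libraries and 0 to 0.459 CPM in the other 12, passed the filter through the ascending libraries alone, and lost its call (adjusted p = 0.0076) without ascending 3 (adjusted p = 0.0942). OSR2 was higher by 0.86 and TBX18, a factor of epicardium and mural cells, lower by 1.00 in the fit as a whole, and both calls were lost without most single libraries (adjusted p up to 0.228 and 0.165).

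HOX genes of paralog groups 6 and above were lower in the ascending aorta for 11 members. Of 24 in the list, 15 were tested, 0 were higher and 4 were not called (over all genes tested 0.527% were lower). For 8 of the 15 no ascending library passed the filter on low counts, so these could enter the test only because they were expressed elsewhere, and the median log2 difference of -4.82 (-4.55 with HOXB8 at its bound) is a description of the tested members alone. HOXA7 was at 0.689, 0.123, 0.605 and 0.483 CPM in the ascending libraries. It was at 36.4, 23.0, 20.6 and 5.65 CPM in the descending libraries and between 26.6 and 92.0 CPM in the suprarenal and infrarenal libraries. It was thus close to absent in the 4 ascending libraries and present in the other 12, with no overlap, and the log2 difference was -6.13 ± 0.62 (SE, adjusted p = 0.000126).

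HOXC6 was at 1.75, 0.308, 0.121 and 0.543 CPM in the ascending libraries and at 29.0, 22.3, 19.8 and 5.76 CPM in the descending, 22.1 to 34.5 CPM in the suprarenal and 17.97 to 37.38 CPM in the infrarenal libraries. HOXB7 was at 1.13, 0.617, 0.605 and 1.27 CPM in the ascending libraries, and at 5.76 to 38.6 CPM in the other 12. Both were low but detected in the ascending libraries, with no overlap with the other 12, and had log2 differences of -5.20 ± 0.59 and -3.99 ± 0.38 (SE, adjusted p = 0.000255 and 9.19e-05). Among the 3 other regions none of HOXA7, HOXC6 and HOXB7 passed the test of a difference (adjusted p = 0.74, 0.95 and 0.343), and each was called against each of those regions alone. HOXB6 was still expressed in the ascending libraries, at 4.90 to 10.1 CPM, below the 12.1 to 28.2 CPM of the other 12 (log2 difference -1.34, adjusted p = 0.00652).

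HOXA9 and HOXA10 were near 0 in the ascending aorta and climbed along the rest of the vessel. For both, no ascending library passed the filter on low counts. They could enter the test only because they were expressed elsewhere, so their differences and adjusted p describe genes selected in that way. HOXA10 was at 0.0626, 0.185, 0.0605 and 0.0604 CPM in the ascending libraries, 1.26 to 2.55 CPM in the descending, 2.66 to 13.3 CPM in the suprarenal and 24.8 to 42.5 CPM in the infrarenal libraries. The log2 difference was -6.25 ± 0.59 (SE, adjusted p = 9.19e-05), reaching -8.55 against the infrarenal region, against -5.97 for the suprarenal and -4.23 for the descending one, and the test among those 3 passed (adjusted p = 0.00174). HOXA9 had 0.0626, 0.0617, 0.0605 and 0.362 CPM in the ascending libraries and 2.16 to 51.3 CPM in the other 12, a difference of -6.37 ± 0.68 (SE, adjusted p = 0.000165).

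HOXC9, HOXC8 and HOXB8 were at or next to the limit of detection in the ascending libraries. HOXC9 had 1 read over the 4 ascending libraries and 849 over the other 12, a ratio of the other 12 over the ascending libraries of 277 (95% counting interval 49.6 to 1.10e+04, allowing for library size). HOXC8 had 3 reads in the ascending libraries and 876 in the other 12, a ratio, taken the same way, of 95.4 (interval 32.5 to 463). HOXB8 had 0 reads in the 4 ascending libraries and 0.0554 to 2.88 CPM in the other 12. Intervals cover counting error only, since PCR copies of a molecule are not independent.

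HOX genes of paralog groups 1 to 5 were lower in the ascending aorta for 4 members, HOXC4, HOXC5, HOXB5 and HOXD4. Of 15 in the list 13 were tested, 0 were higher and the median was -0.59 (over all genes tested 0.527% were lower). HOXA2, HOXA3, HOXB2 and HOXB4 lay between -0.06 and 0.08 on the log2 scale and did not pass. HOXA2 was at 5.79 to 11.4 CPM in the ascending libraries and 5.86 to 13.8 CPM in the others, and HOXB4 at 23.1 to 32.4 CPM in the ascending libraries and 17.9 to 35.9 CPM in the other 12. HOXD3 and HOXD1 had larger negative differences, -2.07 and -1.58, that did not pass (adjusted p = 0.212 and 0.294). HOXD3 was at 0 to 1.63 CPM in the ascending libraries and 0.721 to 8.26 CPM in the other 12. HOXC4 was at 2.57, 1.98, 1.09 and 1.81 CPM in the ascending libraries and 4.32 to 38.4 CPM in the other 12 (difference -2.90 ± 0.34 SE, adjusted p = 0.00028). HOXC5 was at 5.01, 2.22, 2.91 and 2.23 CPM in the ascending libraries and 5.09 to 15.4 CPM in the other 12 (difference -1.57 ± 0.28 SE, adjusted p = 0.00872). HOXB5 was lower by 2.50 and HOXD4 by 2.67 (adjusted p = 0.0137 and 0.0232), HOXD4 with 1.25, 1.42 and 1.51 CPM in ascending 1, 2 and 3 and 11.0 CPM in ascending 4. The calls of HOXC5, HOXB5 and HOXD4 were lost in at least 1 fit without a single ascending library, with adjusted p of up to 0.0501, 0.0728 and 0.0959. HOXA4 went the other way against the infrarenal region alone, higher by 2.06 (adjusted p = 0.00141), and had a difference of -0.58 from the descending region (adjusted p = 0.778). Of 8 tested cofactors of HOX proteins, 0 were called by edgeR, DESeq2 or voom, and 1 had an unadjusted p under 0.05. The counts were made without any statement of strand, so reads of a HOX gene and of RNA from the opposite strand cannot be told apart.

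**Figure D3:**
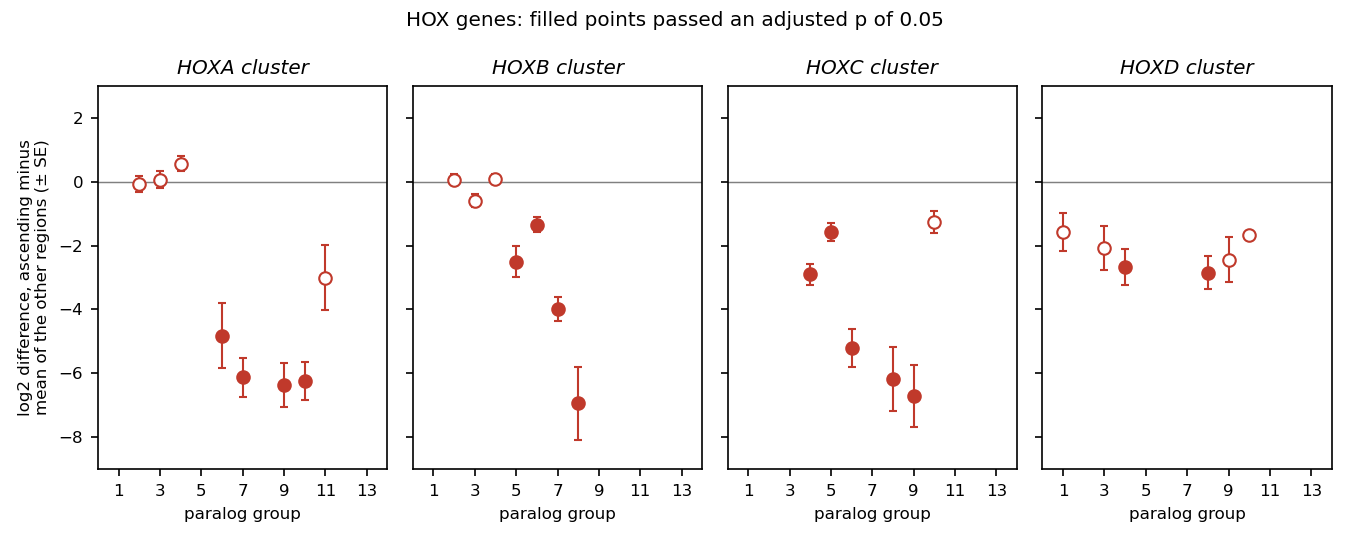
Log2 difference, ascending minus the mean of the other 3 region means, for the HOX genes reported here, by cluster and paralog group, with its SE. Filled points passed an adjusted p of 0.05; HOXD10 (-1.68) is drawn with no bar because its SE is wider than the axis. Groups 1 to 3 lie between -2.07 (HOXD3) and 0.07 and are open, and group 4 holds filled and open points.

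An unnamed gene with NCBI GeneID 102137838, which has no symbol in the annotation used and was chosen after its values were seen, had the smallest p of all genes. It was at 1.38, 1.36, 0.787 and 1.15 CPM in the ascending libraries and at 12.4 to 50.1 CPM in the other 12, a log2 difference of -4.73 ± 0.35 (SE, adjusted p = 8.98e-06).

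Outside these families, the leading genes on the higher side were PIANP, GNAO1, CLIC6, C19H19orf33, ART4, KRT8, CP, MCOLN2, PDPN and UNC80, with HAND1 and GATA5. These 12 showed the largest differences among called genes that had a symbol, averaged at least 1 on the log2 CPM scale and did not overlap between the groups. PIANP, a membrane ligand of the PILR-alpha receptor also known in neurons, was at 14.03, 19.8, 26.8 and 26.1 CPM in the ascending libraries. It was at 0.611, 0.723, 3.27 and 2.22 CPM in the descending, 0.335 to 2.35 CPM in the suprarenal and 0.154 to 0.459 CPM in the infrarenal libraries. Its log2 difference was 4.67 ± 0.42 (SE, adjusted p = 6.12e-05), and it was called against all 3 regions alone, at 3.66, 4.20 and 6.13 in their order along the vessel. Against the descending region that call was lost in some fits without 1 library (adjusted p up to 0.0894).

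ART4, which carries the Dombrock blood group antigen, was evenly higher: 10.6, 11.8, 5.21 and 10.8 CPM in the ascending libraries and 0.849 to 2.77 CPM in the other 12. Its difference was 2.56 ± 0.27 (SE, adjusted p = 0.000165), with 2.51 against descending, 2.20 against suprarenal and 2.96 against infrarenal, each called in the fit of all libraries. CLIC6, a chloride intracellular channel protein, was at 4.26, 9.503, 1.998 and 7.001 CPM in the ascending libraries and 0 to 1.66 CPM in the others, a difference of 3.35 ± 0.48 (SE, adjusted p = 0.00189). CP, the copper carrier ceruloplasmin, was at 11.6, 27.5, 11.3 and 36.4 CPM in the ascending libraries and 1.18 to 7.28 CPM in the other 12, a difference of 2.42 ± 0.40 (SE, adjusted p = 0.00502).

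GNAO1, a G protein alpha subunit of neurons and heart, was uneven within the region, at 17.4, 9.20, 1.70 and 2.48 CPM in the ascending libraries and 0 to 1.28 CPM in the other 12 (difference 4.17 ± 0.67 SE, adjusted p = 0.00391). KRT8, an epithelial keratin, was at 75.8, 79.1, 95.4 and 64.9 CPM in the ascending libraries, 11.7 to 50.5 CPM in the descending, 10.2 to 19.6 CPM in the suprarenal and 2.95 to 9.64 CPM in the infrarenal libraries. The difference was 2.51 ± 0.33 (SE, adjusted p = 0.000765), with 1.30 against descending (adjusted p = 0.501) and 3.89 against infrarenal (adjusted p = 0.000366), and the other regions themselves differed (adjusted p = 0.0307). KRT8 is also a mesothelial marker, and it stood as high in ascending 1, 2 and 3 as in ascending 4. MSLN, a defining marker of mesothelium, ranged from 0.494 to 40.7 CPM in the ascending libraries. KRT18, a mesothelial list member too uneven to test, had 2, 0, 3 and 246 reads there. The part of mesothelium in the KRT8 difference was not tested. PDPN, UNC80 and MCOLN2 were higher by 1.87, 1.76 and 2.17 (adjusted p = 0.0208, 0.0175 and 0.0101), and each lost its call in at least 1 fit without a single ascending library (adjusted p up to 0.0877). With ascending 1 and 4 both left out, GNAO1, C19H19orf33 and CP had adjusted p of 0.0615, 0.109 and 0.0624.

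**Figure D4:**
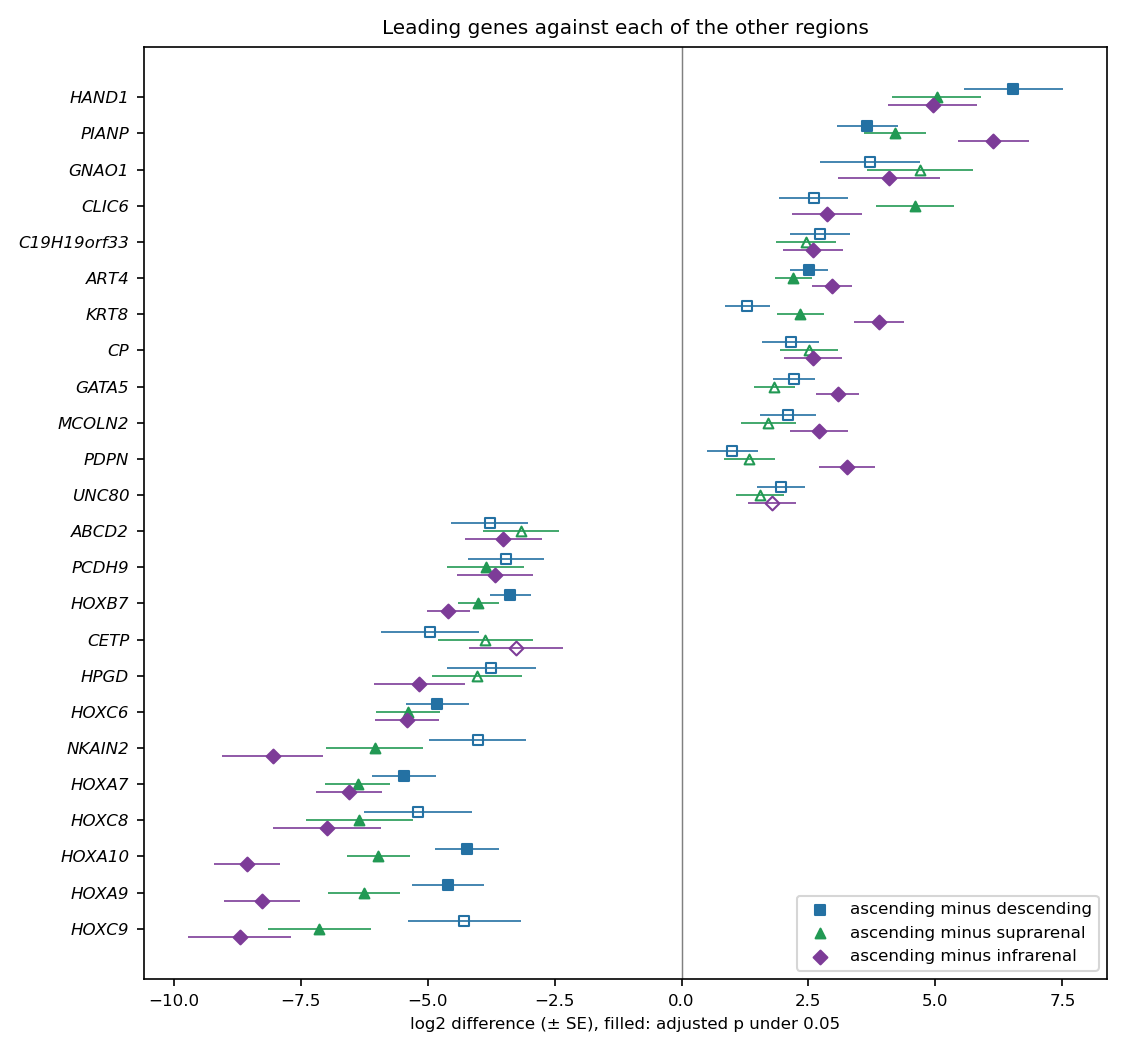
Log2 difference of the 24 leading genes between the ascending region and each of the descending, suprarenal and infrarenal regions, with its SE, where a filled symbol passed an adjusted p of 0.05. HAND1, PIANP and ART4 are filled against all 3 regions on the higher side, and on the lower side HOXA10 runs from -4.23 against descending to -8.55 against infrarenal.

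On the lower side the leading genes outside the HOX family were NKAIN2, HPGD, CETP, PCDH9 and ABCD2. For NKAIN2, HPGD and ABCD2 no ascending library passed the filter on low counts. These could enter the test only because they were expressed elsewhere, so their differences describe genes selected in that way. NKAIN2, a partner of the sodium pump beta subunit, was at 0, 0.123, 0.121 and 0.302 CPM in the ascending libraries and 0.665 to 47.0 CPM in the other 12, with the infrarenal libraries at 33.9 to 47.0 CPM. Its difference was -6.04 ± 0.91 (SE, adjusted p = 0.00253), and -8.05 against the infrarenal region alone. HPGD, which breaks down prostaglandins, was lower by 4.31, CETP, a lipid transfer protein made in liver and fat, by 4.03, PCDH9, a protocadherin, by 3.66, and ABCD2, a peroxisomal transporter of fatty acids, by 3.48 (adjusted p = 0.0143, 0.0304, 0.0142 and 0.0196). Each of these 4 lost its call in at least 1 fit without a single library (adjusted p up to 0.127 for CETP). All 19 tested markers of white adipocytes had a negative difference, with a median of -2.81, and 0 were called by edgeR or voom while 13 had an unadjusted p under 0.05 and DESeq2 called 9 lower, and their summed level was 384.2 to 1150 CPM in the ascending libraries against 702.8 to 6972 CPM in the descending, 420.2 to 5091 CPM in the suprarenal and 419.1 to 5886 CPM in the infrarenal libraries. Over all 15926 genes tested, 1595 had an unadjusted p under 0.05 and DESeq2 called 297 lower. The part of fat in the differences of CETP, ABCD2, HPGD and PCDH9 was not tested.

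The descending aorta is the nearest neighbour, and 18 genes separated the pair. They included HAND1, PIANP, ART4 and MAB21L2 on the higher side, and on the lower side SLIT3 and the HOX genes HOXA7, HOXA9, HOXA10, HOXB7, HOXC5 and HOXC6. Among these HOX genes, HOXA9 and HOXA10 had entered the test only through other regions. Of the 4 higher genes, only 1 stayed called in each fit without ascending 2, ascending 3, descending 1 or descending 2. The genes in the next sentences were chosen after their values were seen. MAB21L2, a developmental gene of eye and body wall, was at 4.32, 7.59, 6.72 and 2.05 CPM in the ascending libraries and 0.333 to 0.611 CPM in the descending libraries, higher by 3.42 (adjusted p = 0.0167). ADGRL3, an adhesion receptor of the latrophilin family, was at 2.13, 1.05, 2.24 and 6.64 CPM in the ascending libraries and 30.4, 42.2, 34.5 and 37.5 CPM in the descending libraries, a difference of -3.58 (adjusted p = 0.00251). TENM3, a teneurin, was at 4.20, 4.32, 4.60 and 7.36 CPM in the ascending libraries and 20.5, 22.3, 11.7 and 20.6 CPM in the descending libraries, a difference of -1.87 (adjusted p = 0.01).

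Latrophilins and teneurins bind each other across cell contacts, and ADGRL3 and TENM3 were below all 12 other libraries. SERTM1 was lower by 3.56 and ITGBL1, an integrin beta-like secreted protein, by 1.78 (adjusted p = 0.0135 and 0.0171). SNX31, a sorting nexin, was at 0 to 0.181 CPM in the ascending libraries and at 2.83 to 17.1 CPM in the descending and 3.55 to 28.6 CPM in the suprarenal libraries, but the infrarenal libraries were at 0 to 0.393 CPM. SNX31 was called against descending and suprarenal (adjusted p = 0.01 and 0.00417) and not against infrarenal (adjusted p = 0.783). No ascending library passed the filter for SNX31, which entered the test only through other regions.

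Several abundant genes were called at smaller fold sizes, also chosen after their values were seen. NT5E, the ectoenzyme that makes adenosine, was at 165, 152, 233 and 184 CPM in the ascending libraries and 57.8 to 118 CPM in the other 12, a difference of 1.12 ± 0.13 (SE, adjusted p = 0.000356). SLC17A7, a vesicular glutamate transporter, was at 75.5, 68.8, 68.4 and 67.1 CPM in the ascending libraries, with 25.9 to 48.7 CPM in the descending, 18.4 to 32.8 CPM in the suprarenal and 7.34 to 15.3 CPM in the infrarenal libraries (difference 1.73 ± 0.18 SE, adjusted p = 0.000165). SLC6A8, the creatine transporter, was at 161 to 212 CPM in the ascending libraries and 52.9 to 123 CPM in the others (difference 1.02, adjusted p = 0.000421). RBFOX1, a splicing factor, was high in the ascending aorta at 65.2, 63.9, 51.6 and 14.97 CPM, but the descending libraries held 19.6 to 47.3 CPM and the infrarenal ones at most 0.197 CPM, and against the mean of descending and suprarenal the adjusted p was 0.294.

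NOTCH3, a receptor of arterial smooth muscle and pericytes, had its lowest levels in the ascending libraries. It was at 71.2, 45.1, 47.8 and 61.3 CPM in the ascending libraries, 236, 108, 94.2 and 128 CPM in the descending, 256, 248, 177 and 182 CPM in the suprarenal and 494, 429, 402 and 505 CPM in the infrarenal libraries. The difference was -2.10 ± 0.24 (SE, adjusted p = 0.000255), from -1.33 against descending (adjusted p = 0.0726) through -1.94 against suprarenal (0.00284) to -3.02 against infrarenal (3.07e-05). JAG1, a ligand of NOTCH3, was at 69.9 to 97.5 CPM in the ascending libraries and 76.2 to 339 CPM in the others, lower by 0.96 (adjusted p = 0.0138). DLK1, a non-canonical ligand, was at 3.88, 1.60, 3.94 and 3.80 CPM in the ascending libraries and 0 to 1.59 CPM in the others, higher by 3.77 (adjusted p = 0.0306). Of 31 tested Notch pathway genes 1 was higher and 2 were lower (0.860% and 0.527% over all genes tested), with a median of -0.17. The calls of JAG1 and DLK1 were lost in some fits without a single library (adjusted p up to 0.0824 and 0.101), and that of JAG1 against the mean of descending and suprarenal (adjusted p = 0.359).

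Of 11 tested pericyte and mural markers, 10 had a negative difference, 2 were called lower (NOTCH3 and PDGFRB, where 0.527% of all genes tested were) and the median was -0.79. Their scores were -0.67 to -0.52 in the ascending libraries and -0.10 to 0.56 in the other 12. PDGFRB, the PDGF receptor of mural cells and fibroblasts, was at 201, 161, 187 and 166 CPM in the ascending libraries and 210 to 370 CPM in the others (difference -0.62 ± 0.11 SE, adjusted p = 0.007, and 0.0501 without ascending 2). RGS5, another defining marker, was at 824.6 to 2313 CPM in the ascending libraries and 739 to 6407 CPM in the others (adjusted p = 0.304). The part of these cells in the NOTCH3 difference was not tested. Of 37 tested FGF, PDGF and IGF ligands and receptors, 3 were lower and 0 higher (0.527% and 0.860% over all genes tested), PDGFRB, FGF1 (-1.76, adjusted p = 0.0261) and ANGPT1 (-1.23, adjusted p = 0.0379). FGF1 and ANGPT1 lost their calls in 2 and 10 of the fits without a single library.

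Of 52 tested axon guidance genes that also act on vessels, 2 were higher (EPHB6 and EFNB3) and 1 was lower (SLIT3) (0.860% and 0.527% over all genes tested). SLIT3, a secreted guidance ligand, was at 106, 73.4, 94.7 and 102 CPM in the ascending libraries and 140 to 456 CPM in the other 12, a difference of -1.35 ± 0.20 (SE, adjusted p = 0.00195). EPHB6, a kinase-dead ephrin receptor, was at 28.7, 26.5, 39.2 and 24.6 CPM in the ascending libraries and 5.24 to 15.9 CPM in the other 12, a difference of 1.39 ± 0.18 (SE, adjusted p = 0.000623). EFNB3, an ephrin ligand, was called at 1.32 (adjusted p = 0.0435) and lost its call in 13 of 16 fits without a single library. Of 50 tested WNT pathway genes only DKK3 was called, higher by 0.96 (adjusted p = 0.0368, lost in 8 of 16 such fits), where 0.860% of all genes tested were higher. Of 49 tested TGF-beta and BMP genes 0 were called by edgeR or voom, against 7 at an unadjusted p under 0.05 and 3 by DESeq2. Of 18 retinoic acid genes 0 were called by edgeR or voom, against 4 at an unadjusted p under 0.05 and 2 by DESeq2, and of 35 genes of extracellular proteolysis 0, against 7 and 1. Over all 15926 genes tested the unadjusted and DESeq2 counts were 1595 and 547.

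Of 25 tested elastic fibre genes 0 were called by edgeR, DESeq2 or voom, with a median of 0.12. At an unadjusted p under 0.05, 6 were higher, where 1595 of 15926 genes tested passed in either direction. ELN, elastin, was at 225, 521, 406 and 118 CPM in the ascending libraries and 33.4 to 635 CPM in the others (difference 0.31, adjusted p = 0.962). FBN1, fibrillin-1, was at 315 to 554 CPM in the ascending libraries and 265 to 816 CPM in the others (difference -0.18, adjusted p = 0.912). Of 23 fibrillar and associated collagens 2 were higher and 4 lower (0.860% and 0.527% over all genes tested). COL1A1, the main chain of type I collagen, was at 675, 582, 662 and 924 CPM in the ascending libraries and 1243 to 4465 CPM in the other 12, with no overlap (difference -1.72 ± 0.28 SE, adjusted p = 0.00388). COL6A3 was at 82.4, 80.8, 105 and 107 CPM in the ascending libraries and 159 to 481 CPM in the other 12 (difference -1.60 ± 0.27 SE, adjusted p = 0.00517), and COL1A2 was lower by 0.92 (adjusted p = 0.0232). Both type I chains and COL6A3 were thus lower together.

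COL8A1, a short-chain collagen of vessels, was at 18.4 to 76.5 CPM in the ascending libraries, 42.1 to 64.9 CPM in the descending and 488 to 720 CPM in the infrarenal libraries, so its difference of -1.98 (adjusted p = 0.0208) stood mainly against the infrarenal region at -3.87. COL21A1, a fibril-associated collagen of vessel walls, was higher, at 110, 103, 115 and 86.6 CPM in the ascending libraries and 6.90 to 70.8 CPM in the other 12 (difference 1.54 ± 0.24 SE, adjusted p = 0.00295). COL4A3, of the basement membrane, was at 64.8 to 114 CPM in the ascending and 63.1 to 86.5 CPM in the descending libraries and at 8.58 to 14.4 CPM in the infrarenal libraries. Its call against all 3 (1.44, adjusted p = 0.00315) thus had little from the descending region (0.20, adjusted p = 0.876). Against the mean of descending and suprarenal the adjusted p was 0.152 for COL21A1, 0.542 for COL4A3 and 0.498 for COL8A1. COL8A1 and COL1A2 also lost their calls without some single ascending libraries (adjusted p up to 0.0964 and 0.114), as did COL9A2 and MIA, 2 cartilage-like matrix genes called at 1.99 and 1.95, without ascending 4 (adjusted p = 0.339 and 0.195).

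Fibroblast markers, which include COL1A1 and COL1A2, had 15 of 19 negative differences, a median of -0.60 and no other called member (0.527% of all genes tested were lower). Their scores were -0.83, -0.71, -0.48 and 0.19 in the ascending libraries and -0.79 to 0.81 in the other 12. The part of fibroblasts in the collagen differences was not tested.

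**Figure D5:**
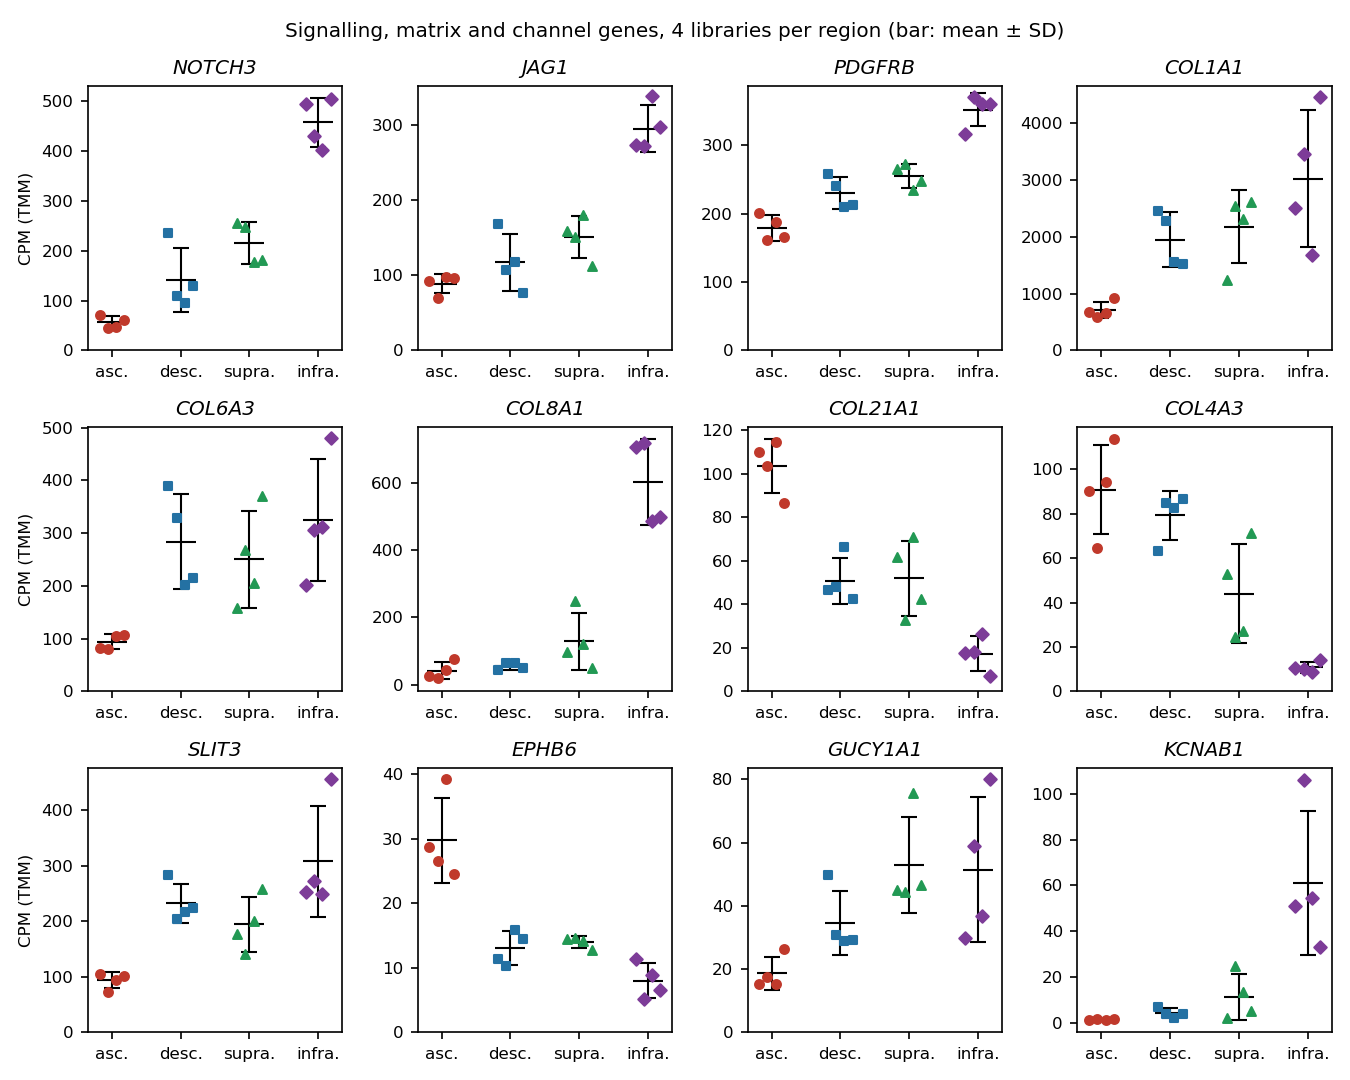
CPM of 12 signalling, matrix, receptor and channel genes in each of 4 libraries per region, with the mean and SD of each region as a black bar. NOTCH3 and COL1A1 are lowest in the ascending libraries at the left, EPHB6 and COL21A1 highest there, and COL8A1, COL4A3 and KCNAB1 separate the infrarenal libraries from the rest.

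Contractile genes of smooth muscle did not pass the test. Of 38 tested 0 were called by edgeR, DESeq2 or voom, 1 had an unadjusted p under 0.05 and the median was 0.01. The score of the list was -0.52 in ascending 4 and 0.08 to 0.27 in the other ascending libraries, and -0.80 to 0.27 in the other 12. Of 45 tested vasoactive receptors and their effectors only GUCY1A1, a subunit of the nitric oxide receptor, was called, where 0.527% of all genes tested were lower. It was at 15.2, 17.5, 15.4 and 26.4 CPM in the ascending libraries and 28.8 to 80.2 CPM in the others (difference -1.29 ± 0.27 SE, adjusted p = 0.0249). The call was lost without any 1 of ascending 1, 2 and 3 (adjusted p up to 0.112).

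Of 42 tested ion channel genes 4 were higher and 2 lower (0.860% and 0.527% over all genes tested). KCNAB1, a beta subunit of voltage-gated potassium channels, was at 1.00 to 1.63 CPM in the ascending libraries, 2.24 to 7.03 CPM in the descending, 1.92 to 24.9 CPM in the suprarenal and 33.0 to 106 CPM in the infrarenal libraries, a difference of -3.42 ± 0.60 (SE, adjusted p = 0.00799). TRPC6, a receptor-operated calcium channel, was at 11.6, 14.1, 14.9 and 11.1 CPM in the ascending libraries and 16.7 to 50.5 CPM in the other 12, lower by 1.15 (adjusted p = 0.0197). KCNK6, a potassium channel, was higher by 0.80, and CACNB3 and CACNA2D3, 2 accessory subunits of calcium channels, by 0.55 and 1.79 (adjusted p = 0.0274, 0.0358 and 0.0499). TRPC6 and KCNK6 lost their calls in some fits without a single library (adjusted p up to 0.17), and KCNAB1 against the mean of descending and suprarenal (adjusted p = 0.119).

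Markers of other cells were mostly not called. Mesothelial markers were positive for all 8 tested, with a median of 2.14 that became 0.06 without ascending 4, and KRT8 was the called one (0.860% of all genes tested were higher). Endothelial markers had 0 of 24 called by edgeR, DESeq2 or voom or at an unadjusted p under 0.05, and a median of -0.47, which became -1.27 without ascending 4. Macrophage, lymphocyte, mast cell, brown adipocyte and skeletal muscle markers had 0 called by edgeR or voom, against 1, 0, 4, 5 and 4 at an unadjusted p under 0.05 in that order, and DESeq2 called 2 brown adipocyte and 1 skeletal muscle marker. Over all 15926 genes tested, 1595 had an unadjusted p under 0.05 and DESeq2 called 547. Of 35 genes of heritable thoracic aortic disease, 34 were tested, with a median of -0.01. Of these, 2 were lower and 0 were higher (0.527% and 0.860% over all genes tested). The lower ones were COL1A1 and COL1A2, already counted among the collagens.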

How the data were processed

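The authors deposited raw counts per NCBI GeneID for each library, and the submitters' processing notes name fastp, HISAT2 (2.0.5) and featureCounts (1.5.0-p3). No source used here gives the genome build, annotation or use of strand. Total RNA from aorta was made into libraries with a NEBNext Ultra kit, per the labels. Rows were named through RefSeq annotation of the telomere-to-telomere cynomolgus assembly, used for names alone, which matched 24609 of 32846 rows (97.2% of counts). Of the rows, 24 are mitochondrial RNA names (0.0568% of counts). Counts were filtered with filterByExpr (minimum count 10, minimum total 15), which kept 15926 genes and 99.9% of counts, scaled by TMM and fitted with edgeR 4.0.16 (R 4.3.3) over all 16 libraries with a mean per region (common dispersion 0.146). The ascending mean was set against the mean of the 3 other region means and against each region. The SE is the log2 difference over the root of the F statistic. DESeq2 1.42.0, voom of limma 3.58.1, other scalings, filters and left-out libraries were alternatives. The fit was tested on simulated data. No library repeated another (lowest chi-square per degree of freedom within a region 28.5). The comparison, its 37 gene lists and the naming rule (the 12 largest in each direction without overlap at a mean log2 CPM of at least 1, up to 4 called members a list) were chosen with earlier results of these data known. Some list members stay in the counts and are not reported here by name. The naming rule also took in NOTCH3, ELN, FBN1 and all tested outflow tract, neural crest and anterior HOX list members. Other genes stand outside it and count as chosen after their values were seen. These are the genes marked as such, the named list members too scarce or uneven to test, and some left unmarked above. The unmarked genes are MYH11, ITLN1, MSLN, RGS5, HOXB6, HOXB8, HOXD10, CACNB3, CACNA2D3 and ATP1B1.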

Additional observations from a re-analysis of the deposited data

Results flagged for a closer look

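Of 240 groups of 4 libraries examined, 28 held a library whose gap to the nearest of the others exceeded Dixon's 95% critical value, and chance flags about 1 in 20 groups. That rate holds for normally spread values, so the count of flags cannot be set against it where reads are near 0. The flags of HOXC9 in ascending 4 and PITX1 in suprarenal 2 rested on 1 read each, and that of HOXA10 in ascending 2 on 3 reads. Each value below stands beside the range of the other 3 libraries of its region.

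In the ascending region ascending 4 stood apart for GATA4 (15.5 CPM, others 0.679 to 2.51), SOX10 (14.4 CPM, others 3.09 to 4.01), TENM3 (7.36 CPM, others 4.20 to 4.60), HOXA9 (0.362 CPM, others 0.0605 to 0.0627), HOXC9 (0.0604 CPM, others 0) and the mesothelial list score (3.48, others -0.16 to 0.05). Ascending 1 stood apart for MYL2 (99.4 CPM, others 0.123 to 0.605) and the cardiac muscle list score (2.14, others 0.11 to 0.31). Ascending 3 did so for PITX1 (4.48 CPM, others 0.617 to 0.785) and ascending 2 for HOXA10 (0.185 CPM, others 0.0604 to 0.0627).

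In the descending region the flagged values were HAND1 (0.425 CPM) and PITX1 (0.182 CPM) in descending 3, where the others had at most 0.0602 and 0 CPM, COL4A3 in descending 1 (63.1 CPM, others 82.8 to 86.5) and the pericyte and mural list score in descending 1 (0.52, others -0.10 to -0.01). In the suprarenal region suprarenal 3 was high for GATA4 (0.698 CPM, others 0 to 0.118), ISL1 (2.35 CPM, others 0.247 to 0.43), SOX10 (10.6 CPM, others 2.24 to 3.49), the Schwann cell and nerve list score (1.20, others -0.28 to -0.10) and the outflow tract and heart field list score (0.26, others -0.22 to -0.15). SOX9 was high in suprarenal 1 (26.7 CPM, others 3.62 to 5.31), and NKAIN2 and PITX1 in suprarenal 2 (27.5 CPM, others 1.89 to 5.57, and 0.0478 CPM, others 0).

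In the infrarenal region the flagged values were HOXA7 (92.0 CPM, others 26.7 to 31.3) and the pericyte and mural list score (0.02, others 0.50 to 0.56) in infrarenal 1, PITX1 (0.459 CPM, others 0) and SOX10 (4.78 CPM, others 0.602 to 1.30) in infrarenal 3, and HOXA10 (24.8 CPM, others 40.03 to 42.5) and SLIT3 (456 CPM, others 250 to 273) in infrarenal 4.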

How the results depend on the processing

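Against 221 genes called in the main comparison, DESeq2 called 547 (250 higher, 297 lower), a fit with the 12 other libraries as 1 group 105, and the fit against the mean of descending and suprarenal 66. DESeq2 called 177 genes against descending, 184 against suprarenal, 1004 against infrarenal and 405 among the 3 other regions, and voom called 9 against descending. The next pair of alternatives was added after the data were seen. Without infrarenal 1, ascending 4 and suprarenal 3 the counts were 1048 (505 higher, 543 lower), 141 against descending, 113 against suprarenal, 2099 against infrarenal and 410 among the other regions. Without ascending 1 and 4 they were 80 in all, 6 against descending, 15 against suprarenal and 332 against infrarenal, and HOXC8, HOXC9, NKAIN2, COL1A1, COL6A3, COL4A3, ITGBL1, KCNAB1, IRX2 and SNX31 were among the calls lost (adjusted p = 0.0794, 0.0527, 0.0564, 0.0527, 0.1, 0.101, 0.0564, 0.128, 0.209 and 0.109). Leaving out 1 library at a time gave 109 to 640 genes in the main comparison, 7 to 34 against descending, 19 to 66 against suprarenal, 345 to 1001 against infrarenal and 68 to 189 among the other regions. COL21A1, COL4A3, KRT8, SLC17A7, ATP1B1, HOXC9, KCNAB1, IRX2 and SNX31 were not called with the 12 other libraries as 1 group (adjusted p = 0.148, 0.631, 0.0884, 0.0623, 0.193, 0.0536, 0.145, 0.326 and 0.135), nor HOXC8, NKAIN2 and SNX31 by voom (adjusted p = 0.0834, 0.0592 and 0.304), where KCNAB1 was not called either. MYL2 ran from -0.44 to 5.91 over the fits without 1 library and from -0.58 to 5.98 over all, reversed without ascending 1 (-0.44) and without ascending 1 and 4 (-0.58). Causes were not tested. A replicate block raised the counts to 409, and to 62, 76 and 843 against descending, suprarenal and infrarenal, and 257 among the other regions. The labels say nothing of what a shared number means. The deviations of same-numbered libraries correlated at 0.552, 0.556, 0.213 and -0.017 for numbers 1 to 4, and 15 of 16 libraries were closest on average to their own number. Because the labels give regions only and no animal or batch, the number was left out of the main fit and the libraries were not treated as paired. The adjusted p given for genes here thus leave out a link that most same-numbered libraries showed, and what lies behind that link is not known. At these depths genes with a few reads per library limit the test.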
